A study of Mus musculus with 6 samples.

Results

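Mouse mesoderm progenitor cells were compared at 0 h in culture and after 96 h of culture without added growth factor. The members were taken by their labels: the 0 h untreated and 96 h untreated libraries, 2 of the 6 libraries of the series. They were read across all 19342 rows of the count table that carry a gene name. Both the members and the gene lists below were chosen with earlier results of these data known. The series asks how growth factors act on mesoderm progenitors of the mouse tailbud. Both libraries are total RNA of C57BL/6 mesoderm progenitor cells that received no growth factor. The cells came from mouse embryos. Their age, their number and any pooling are not stated in the labels. Per the labels' protocols, the medium was DMEM with serum and penicillin-streptomycin, and the cells sat on feeder fibroblasts of wild-type C57Bl/6 mice, treated with mitomycin C to stop them dividing. The labels do not say whether feeder cells were removed before RNA was taken, or whether the 0 h cells had met them. Feeders and progenitors share a strain, and their RNA cannot be told apart by genotype. Each time point had 1 library, so every ratio below compares these 2 libraries, has no replicate check and carries no p-value.

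The tailbud is the growth zone at the posterior end of the embryo. Its progenitors express Brachyury (gene symbol T), Cdx and Tbx factors under WNT and FGF signals, enter the presomitic mesoderm, and are cut into somites by a clock that runs through Notch and Hes genes. Hox genes are laid out along their clusters in the order in which they are used from head to tail, so that the highest-numbered groups mark the most posterior cells. Neighbouring mesoderm has other fates: intermediate mesoderm makes the kidney ducts, and lateral plate mesoderm makes heart, body wall and limb, while the first red cells and vessels come from extraembryonic mesoderm.

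The 0 h library held 219269083 counts and the 96 h library 272743104. A level of 3 counts corresponded to 0.0137 CPM (counts scaled to a common library size, as edgeR gives them) at 0 h and to 0.0110 CPM at 96 h, so even weakly expressed genes rested on many counts, and the counting intervals below cover counting error only. Small RNA rows, and abundant rows whose counts in both libraries were identical to another row's, made up 43.0% of counts at 0 h and 42.8% at 96 h. Without them every CPM level would be 1.75 times higher. The scaling ratio between the libraries lay between 1.242 and 1.244 under 5 scalings, but the 0.5 CPM added to each level below would then weigh less, and more genes would pass (698 higher and 431 lower). Rows with only nearly equal counts, such as Hba-a1 and Hba-a2, stayed in under that alternative. Xist had 27109 and 21642 counts and its antisense partner Tsix 27120 and 21649. Overlapping genes on opposite strands thus cannot be told apart in this table.

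Most genes had nearly the same level in both libraries, and a minority moved far. Of 13824 genes that reached 1 CPM at 0 h or 96 h, 11925 (86.3%) lay within 1.5-fold. A gene is said to have risen or fallen where its ratio was at least 2-fold after 0.5 CPM was added to both levels and the exact 95% counting interval of the plain ratio excluded 1. By this rule 562 genes (4.07%) rose and 348 (2.52%) fell. Adding 2 CPM instead of 0.5 lowered the numbers to 312 and 195, and testing only genes of 5 CPM or more lowered them to 322 and 214. The median log2 ratio of all tested genes was -0.0042, with the 5th and 95th percentiles at -0.67 and 0.85. At the 4-fold mark 169 genes (1.22%) were higher and 94 (0.68%) lower, and at the 8-fold mark 61 (0.441%) and 28 (0.203%). Calls were less frequent at high levels. Among 1622 genes averaging 0.5 to 2 CPM, 10.6% rose and 6.41% fell, whereas among 367 genes above 200 CPM 2 rose and 0 fell. Those 2 were Hba-a1 and Hba-a2, copies of the alpha-globin gene that share reads. The plot of gene levels in both libraries shows a narrow diagonal with separate clouds of tailbud and red cell genes. The gene lists used below overlap, so 1 gene can count in several. Their counts stand beside the shares of all tested genes, 4.07% higher and 2.52% lower. Where 2 CPM levels joined by "to" follow a gene, the first is the 0 h level and the second the 96 h level.

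**Figure D1:**
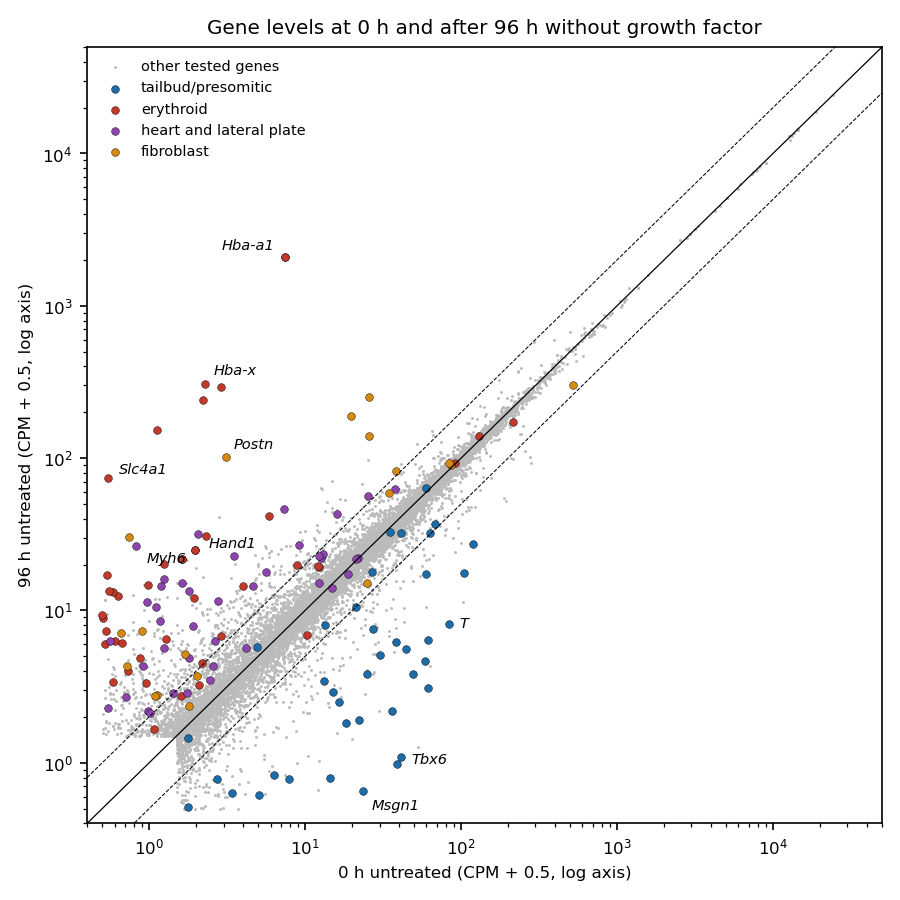
Each point is 1 of 13824 tested genes, with its level at 0 h on the x axis and at 96 h on the y axis (CPM + 0.5, log axes). The solid line marks equal levels and the dashed lines 2-fold differences. Most tailbud and presomitic genes lie below the diagonal and most red cell genes far above it, with Hba-a1 going from 6.88 to 2099 CPM and Tbx6 from 40.6 to 0.583 CPM.

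The identity of the 0 h library was checked on marker genes. Tailbud and presomitic factors were well above 1 CPM there, for example T at 83.1 CPM and Tbx6 at 40.6 CPM, while Eomes and Nodal, which act in the earlier primitive streak, were at 0.0182 and 0.137 CPM. The pluripotency gene Nanog was near 0, with 0.251 CPM at 0 h and 0.224 CPM at 96 h. Genes of somites and intermediate mesoderm were at similar levels at 0 h, with Meox1 at 102 CPM, Pax3 at 30.2 CPM and Pax2 at 52.5 CPM. Genes of other tissues were measured as well. The neural progenitor genes Sox2 and Pax6 stood at 34.7 and 14.7 CPM at 0 h, and the epithelial genes Cdh1, Epcam and Trp63 at 19.7, 9.55 and 6.87 CPM. Sox2 is also a gene of the bipotent axial progenitors of the tailbud, and its reads cannot be told apart from those of Sox2ot, the noncoding gene that spans it. In bulk RNA, fewer cells of a type and less RNA per cell cannot be told apart, which holds for every change reported here.

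Tailbud and axial progenitor genes fell almost without exception. Of 24 listed genes 20 were tested, of which 17 fell and 0 rose, against 2.52% and 4.07% of all tested genes. Their median log2 ratio was -2.64, and their summed level went from 677 to 144 CPM. The exceptions among the tested genes were Sox2 (34.7 CPM at 0 h and 32.2 CPM at 96 h), Cdx1 (4.38 CPM at 0 h and 5.25 CPM at 96 h) and Wnt5b (67.8 CPM at 0 h and 36.3 CPM at 96 h), which did not pass the 2-fold mark.

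The secreted signals of the tailbud were among the strongest falls. Fgf8, the main FGF of the growth zone, fell from 17.9 to 1.32 CPM, with a counting interval of 12.2 to 15.1-fold (chromosome 19, 45736491 to 45742941, build mm10). Fgf17 fell from 38.1 to 0.477 CPM, Fgf3 from 7.36 to 0.283 CPM and Fgf4 from 281 counts (1.28 CPM) to 4 counts. All 4 FGF genes were above 1 CPM at 0 h, and only Fgf8 stayed above it at 96 h. Wnt3a, the WNT ligand that sustains axial progenitors, fell from 14.5 to 2.41 CPM, and Wnt5a, which guides elongation of the axis, from 119 to 26.99 CPM.

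The transcription factors of the progenitors fell with the signals. Nkx1-2, a marker of the axial progenitors that feed spinal cord and somites, fell from 21.6 to 1.41 CPM. Evx1, a homeobox gene of the posterior streak, fell from 24.6 to 3.32 CPM, and the zinc finger genes Sp5 and Sp8, both targets of WNT signalling, fell from 12.8 to 2.92 CPM and from 26.8 to 7.06 CPM. The caudal-type genes split: Cdx4 and Cdx2 fell from 60.5 to 2.60 CPM and from 58.3 to 4.15 CPM, while Cdx1 had a log2 ratio of 0.24. Cyp26a1 and Cyp26c1, enzymes that degrade retinoic acid, fell from 35.5 to 1.70 CPM and from 2.44 to 0.220 CPM. The third member, Cyp26b1, went from 6.81 to 3.23 CPM, a log2 ratio of -0.97, just short of the 2-fold mark.

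Of 19 presomitic genes tested, 12 fell and 0 rose, with a median of -2.58 (-1.70 with 2 CPM added). The lead was taken by Msgn1 and Tbx6, regulators of paraxial mesoderm fate, whose promoters are shown here because no other presomitic gene had a counting interval farther from 1. The sequences are the 250 bases upstream of the transcription start (RefSeq, GRCm38.p6, given 5′ to 3′ along the gene's strand), at chr12:11208949-11209198 on the minus strand for Msgn1 and chr7:126781233-126781482 on the plus strand for Tbx6. Capitals mark a match to the TCF motif CTTTGNT on either strand, the recognition sequence of the factors that act at WNT targets.
Msgn1: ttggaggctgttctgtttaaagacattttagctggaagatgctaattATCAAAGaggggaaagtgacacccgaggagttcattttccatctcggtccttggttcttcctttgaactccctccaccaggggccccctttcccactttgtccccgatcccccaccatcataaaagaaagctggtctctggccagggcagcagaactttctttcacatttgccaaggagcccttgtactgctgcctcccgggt
Tbx6: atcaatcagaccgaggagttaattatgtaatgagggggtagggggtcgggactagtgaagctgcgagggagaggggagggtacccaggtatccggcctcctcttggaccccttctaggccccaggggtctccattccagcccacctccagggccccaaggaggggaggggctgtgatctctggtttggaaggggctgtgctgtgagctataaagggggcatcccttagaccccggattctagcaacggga
The Msgn1 window holds 1 match, starting 203 bases upstream of the start site, and the Tbx6 window holds 0. In all, a match was found in 3 of 18 presomitic promoters in the table (16.7%) and in 16.1% of all 27025 promoters of the same length, so matches were about as frequent in the list as elsewhere.

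Msgn1, a helix-loop-helix factor of early presomitic mesoderm, went from 23.1 CPM to 41 counts (0.150 CPM), 113 to 215-fold lower. Tbx6 fell 59.5 to 81.97-fold, from 40.6 to 0.583 CPM. The clock and boundary genes moved the same way: Hes7, the oscillating repressor, fell from 13.9 to 0.297 CPM, Ripply2 from 4.53 to 0.117 CPM, and Mesp2, which sets the somite boundary, from 2.91 to 0.136 CPM. Cer1, a secreted antagonist expressed in forming somites, fell from 5.83 to 0.334 CPM, and the protocadherin genes Pcdh8 and Pcdh19 fell from 37.5 to 5.66 CPM and from 60.6 to 5.94 CPM. Rspo3, which amplifies WNT signals, fell from 43.9 to 5.06 CPM. Lfng, the sugar transferase of the clock, was 20.6 CPM at 0 h and 10.1 CPM at 96 h, which missed the mark narrowly. Aldh1a2, which makes retinoic acid in the somites, was at 59.0 and 63.6 CPM.

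Notch pathway genes as a whole were mixed. Of 21 tested, 8 fell and 1 rose (median -0.47). The fallen genes include the presomitic ligands Dll1 (105 to 17.02 CPM) and Dll3 (48.8 to 3.34 CPM), the feedback gene Nrarp (59.2 to 16.8 CPM), and the receptor genes Notch1 (110.4 to 47.6 CPM) and Notch4 (17.1 to 3.91 CPM). The 1 gene that rose was Dll4, the ligand of vessel tips, from 0.592 to 2.14 CPM. Hes5, a Notch target of neural progenitors, and Rbpj, the DNA-binding partner of the receptors, were at 5.16 to 8.39 and 59.97 to 61.7 CPM and did not pass.

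**Figure D2:**
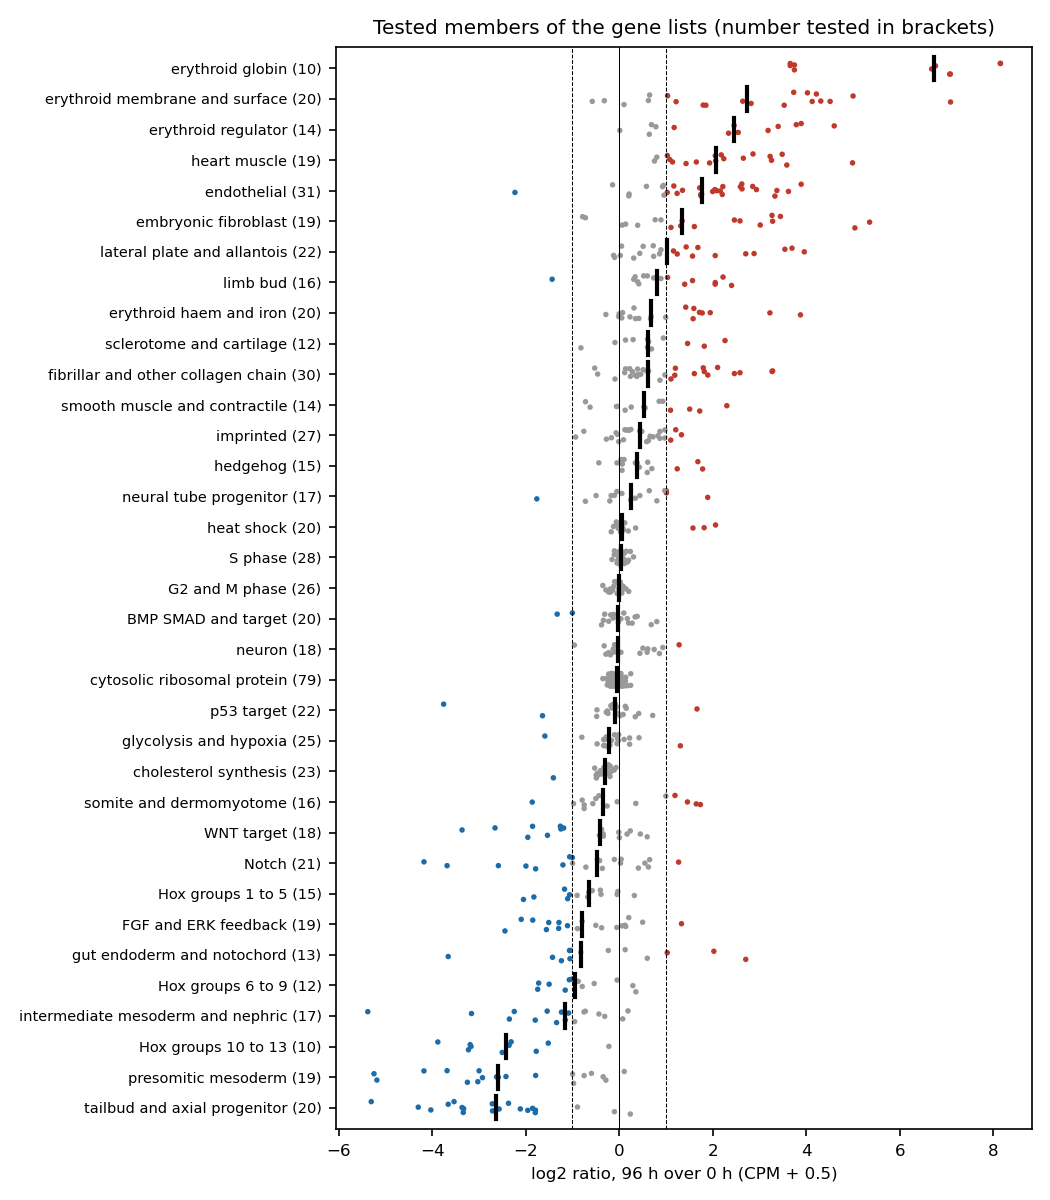
Each point is 1 tested gene of the list at left, at its log2 ratio of 96 h over 0 h (x axis, CPM + 0.5). Red points rose, blue points fell, grey points did not pass, black bars are list medians and dashed lines mark 2-fold. List medians run from -2.64 for tailbud genes to 6.72 for globin genes, and the cell cycle and ribosomal protein lists stay near 0.

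Hox genes fell more the more posterior their group, with exceptions. Of 10 tested genes of groups 10 to 13, 9 fell (median -2.43), compared with 6 of 12 in groups 6 to 9 (median -0.95) and 5 of 15 in groups 1 to 5 (median -0.65). No Hox gene rose. The summed level of groups 10 to 13 went from 342 to 46.9 CPM, that of groups 6 to 9 from 389 to 274 CPM.

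By group, the lowest medians were those of group 11 (-3.22 over 3 genes) and group 10 (-2.50 over 3 genes), with the 1 tested gene of group 12, Hoxd12, at -3.17. Hoxd11 fell from 62.8 to 3.80 CPM, Hoxc11 from 9.90 to 0.613 CPM and Hoxc10 from 103 to 10.8 CPM. Group 13 fell less, with a median of -1.52. Within it Hoxd13 fell from 22.96 to 6.35 CPM, while Hoxa13 had 1.41 CPM at 0 h and 1.14 CPM at 96 h. The plot by paralogue group also shows the order was not smooth. At the anterior end Hoxb1 and Hoxd1 fell from 42.5 to 9.91 CPM and from 16.8 to 4.38 CPM, more than any gene of groups 2 to 9. Hoxb8 (25.6 to 31.5 CPM), Hoxb9 (81.3 to 104 CPM) and Hoxb5 (9.47 to 11.98 CPM) had log2 ratios above 0. These 3 Hoxb genes were the only Hox genes tested with a log2 ratio above 0, and none reached 2-fold.

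Noncoding RNAs of the clusters were looked up after the values were seen. Hotair, transcribed within the Hoxc cluster beside Hoxc11, fell from 2.49 to 0.176 CPM. Hoxa11os fell from 36.8 to 4.87 CPM beside Hoxa11 (34.1 to 6.27 CPM), but as these lie on opposite strands of the same locus their counts cannot be told apart. Hottip, at the posterior end of the Hoxa cluster, was near the detection floor in both libraries with 16 and 11 counts.

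**Figure D3:**
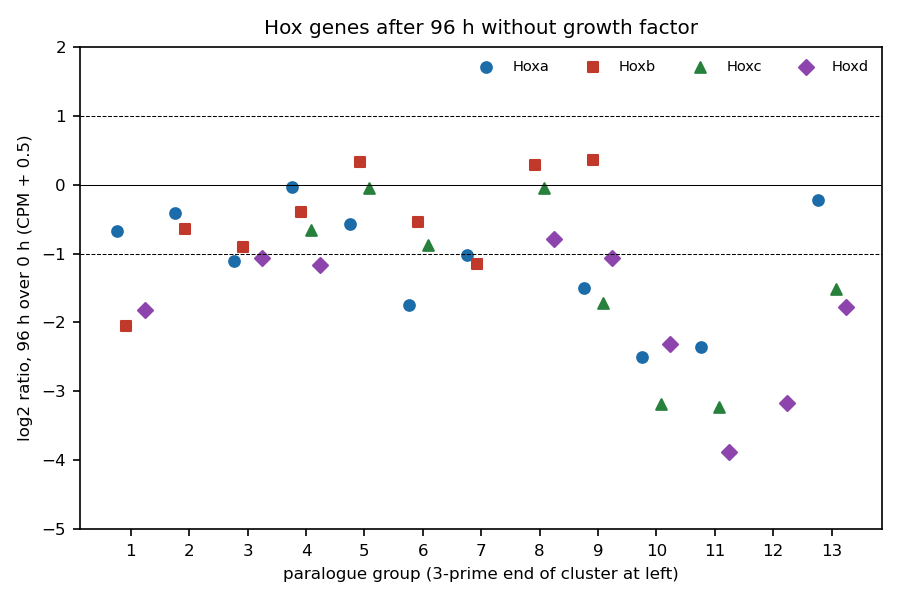
Each point is 1 tested Hox gene, placed by paralogue group (x axis) at its log2 ratio of 96 h over 0 h (y axis, CPM + 0.5), with symbols for the 4 clusters and dashed lines at 2-fold. Groups 10 to 12 lie below -2, while the Hoxb genes of groups 5, 8 and 9 lie just above 0.

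Among FGF genes the ligands changed most. Of 26 ligand, receptor and carrier genes 15 were tested; 6, all ligands, fell and 2 rose. Besides those of the tailbud, Fgf9 fell from 8.23 to 1.11 CPM and Fgf18 from 14.6 to 3.64 CPM, whereas Fgf10, the limb and lateral plate ligand, rose from 3.19 to 9.25 CPM. Among the receptors Fgfr1 had 105 to 76.1 CPM, Fgfr2 48.4 to 61.5 CPM, and Fgfr3 rose from 8.74 to 24.02 CPM.

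Feedback and target genes of the FGF and ERK pathway fell in 8 of 19 cases and rose in 1 (median -0.79). The ERK-induced ETS factors Etv4 and Etv5 fell from 37.1 to 8.28 CPM and from 61.6 to 21.3 CPM. The inhibitors Spry4, Spry2 and Spred3 fell from 27.7 to 4.68 CPM, from 22.6 to 10.2 CPM and from 9.96 to 3.05 CPM. Dusp6, the ERK phosphatase often used as a readout of FGF signalling, was at 86.9 to 49.96 CPM, a log2 ratio of -0.79, and did not pass.

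WNT targets fell in 8 of 18 cases with none higher by the rule (median -0.40). Lef1, a nuclear effector and target of the pathway, fell from 101.1 to 42.3 CPM, Tnfrsf19 from 106 to 44.2 CPM and the antagonist gene Dkk1 from 16.4 to 2.19 CPM. Axin2, the most general target, was at 53.8 to 39.9 CPM and Myc at 29.5 to 44.9 CPM. WNT ligand and antagonist genes changed in both directions, with 5 of 28 lower and 6 higher. Wnt2, a lateral plate and heart ligand, rose from 0.747 to 15.7 CPM, and the secreted inhibitors Sfrp5 and Dkk2 rose from 0.0820 to 3.76 CPM and from 1.29 to 5.45 CPM.

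BMP pathway genes changed in both directions. Of 20 SMAD and target genes 2 fell, 0 rose, against 2.52% lower and 4.07% higher of all tested genes, and the median was -0.02. The direct targets Id1, Id2 and Id3 were at 30.97 to 26.4, 49.7 to 57.1 and 48.7 to 49.9 CPM, and the inhibitory SMAD genes Smad6 and Smad7 at 11.5 to 12.3 and 11.4 to 11.2 CPM, and none of these 5 passed. Those that fell were Dlx5 (2.76 to 0.800 CPM) and Hey1 (25.6 to 12.5 CPM). Among ligand, receptor and antagonist genes 3 of 27 rose and 3 fell. Bmp4 itself, the ligand later added in the series, was at 21.4 to 21.8 CPM and Bmp7 at 13.5 to 14.2 CPM. Bmp5 rose from 2.99 to 11.04 CPM and Gdf11, a ligand of the trunk-to-tail switch, fell from 23.9 to 8.24 CPM.

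Hedgehog and TGF-beta genes that passed were all higher, and retinoic acid genes that passed were all lower. Retinoic acid genes had 2 of 16 lower, the 2 Cyp26 genes above, and a median of 0.04. Among 15 hedgehog genes 3 rose, against 4.07% of all tested genes: the targets Foxf1, Foxf2 and Hhip, which reached 17.5, 5.76 and 9.26 CPM. Gli1 and Ptch1, the usual readouts, were at 26.1 to 35.3 and 62.7 to 65.4 CPM. Of 17 TGF-beta genes 5 rose, a share of 29.4%, among them the ligand genes Tgfb1 (1.65 to 5.68 CPM) and Tgfb2 (5.96 to 17.5 CPM) and the receptor genes Tgfbr2 (1.98 to 5.65 CPM) and Tgfbr3 (4.48 to 19.1 CPM). The matrix-linked targets Ctgf and Cyr61 were at 6.13 to 8.05 and 27.7 to 37.01 CPM and did not pass.

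Intermediate mesoderm genes fell together. Of 17 tested, 10 fell and 0 rose (median -1.15). Pax2 and Pax8, which specify the nephric lineage, fell from 52.5 to 0.774 CPM and from 6.92 to 0.330 CPM. Lhx1, a factor of early nephric mesoderm, fell from 2.39 to 0.726 CPM, Emx2 from 4.47 to 1.46 CPM and Gdnf, the signal that draws out the ureteric bud, from 4.27 to 1.14 CPM. Ret, the receptor for Gdnf, was at 12.8 to 14.6 CPM and Bmp7 at 13.5 to 14.2 CPM, and neither passed.

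Somite derivatives changed gene by gene. Of 16 somite and dermomyotome genes 4 rose and 1 fell (median -0.35). Pax3 and Meox1, expressed in all young somites, were at 30.2 to 25.2 and 102 to 98.6 CPM, while Pax7, Meox2, Dmrt2 and Ebf3 rose, Dmrt2 from 5.85 to 16.9 CPM and Pax7 from 1.09 to 3.13 CPM. In the sclerotome list 3 of 12 rose: Pax1 from 5.05 to 26.1 CPM, Nkx3-2 from 0.128 to 1.23 CPM and Col9a1 from 7.02 to 26.04 CPM. Sox9, the master factor of cartilage, went from 9.77 to 19.3 CPM, a log2 ratio of 0.94 short of the mark, and Pax9 had 4.44 to 4.13 CPM. Of 8 skeletal muscle genes tested, the first myogenic factor Myf5 (0.656 to 4.16 CPM) and the satellite cell cadherin Cdh15 (0.556 to 4.41 CPM) rose. Myog was at 0.989 to 2.21 CPM, and Myod1 at 0.0182 and 0.0440 CPM was below the filter.

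Heart muscle genes rose in 17 of 19 tested cases, with none lower, a median of 2.06 and a summed level going from 35.9 to 199.8 CPM. Myh6, the alpha heavy chain of heart myosin, rose from 0.328 to 25.8 CPM, with a counting interval of 62.4 to 100.7-fold (chromosome 14, 54941921 to 54968017, mm10). The ventricular heavy chain Myh7 rose from 0.670 to 8.002 CPM, the light chain Myl7 from 0.697 to 13.9 CPM, and Mybpc3, which binds myosin in the thick filament, from 13 to 1571 counts (0.0592 to 5.76 CPM). Thin filament genes rose as well: Tnnt2 from 0.606 to 10.1 CPM, Tnnc1 from 0.410 to 3.79 CPM and Actc1, cardiac actin, from 6.86 to 45.9 CPM. The factors Tbx5 and Tbx20 rose from 2.27 to 11.01 CPM and from 1.12 to 14.7 CPM. Nkx2-5, the early cardiac homeobox factor, had 18 and 188 counts (0.0820 to 0.690 CPM) and stayed below the filter in both libraries. The natriuretic peptide genes Nppa and Nppb were also below it, at 0.105 to 0.598 and 0.0228 to 0.194 CPM.

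The Actc1 promoter is shown because it holds the CArG box, the recognition sequence of serum response factor at many muscle genes (250 bases upstream of the start, chr2:114052876-114053125, minus strand, RefSeq, GRCm38.p6). Capitals mark the match, which starts 47 bases upstream of the start site.
Actc1: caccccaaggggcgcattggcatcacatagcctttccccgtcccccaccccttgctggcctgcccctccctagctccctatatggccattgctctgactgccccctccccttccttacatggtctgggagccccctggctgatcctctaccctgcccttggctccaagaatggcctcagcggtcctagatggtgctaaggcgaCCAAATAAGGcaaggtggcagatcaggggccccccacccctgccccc
A CArG box was found in 3 of 23 heart muscle promoters in the table (13.04%) and in 2 of 12 smooth muscle promoters (16.7%). Among all promoters of the same length the share was 1.4%. The box was not particular to muscle lists. It was found in 2 of 18 presomitic promoters (11.1%) and 1 of 14 red cell regulator promoters (7.14%). None was found in 17 tailbud or 19 endothelial promoters. A match is a string of letters in the reference and does not show binding.

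Lateral plate genes rose in 11 of 22 cases and fell in 0 (median 1.03). The increase was led by Hand1 (1.55 to 31.4 CPM), Wnt2, and the GATA factors Gata4 (0.474 to 10.9 CPM), Gata5 (1.40 to 7.40 CPM) and Gata6 (2.99 to 22.3 CPM), which act in heart and splanchnic mesoderm. The members of the list that mark the hindlimb field and posterior body wall did not pass. Isl1 was at 14.5 to 13.5 CPM, Tbx4 at 11.7 to 14.7 CPM and Pitx1 at 11.7 to 22.2 CPM. In the same libraries the summed levels of the embryonic fibroblast and endothelial lists went from 865 to 1381 CPM and from 129.6 to 308 CPM, and their part in the rise of lateral plate and heart genes was not tested.

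In the limb list the forelimb factor Tbx5 passed and the hindlimb factors Tbx4 and Pitx1 did not. Tbx5 is also in the heart list, and a difference between forelimb and hindlimb was not tested. Tbx5 rose 4.41 to 5.34-fold, while Tbx4 had a log2 ratio of 0.31 and Pitx1 of 0.89, short of the mark. Lhx2 (1.02 to 6.59 CPM), Lhx9 (1.60 to 10.6 CPM) and Alx4 (4.81 to 21.5 CPM), homeobox genes of limb and body wall mesenchyme, rose. In all 7 of 16 rose and 1, Sall3, fell from 41.99 to 15.2 CPM. Of 7 mesothelium genes, 4 rose: Upk3b from 0.647 to 7.06 CPM, Bnc1 from 3.25 to 13.03 CPM, Lrrn4 from 2.11 to 6.13 CPM and Podxl from 51.9 to 123 CPM. Wt1, shared by mesothelium and kidney, went the other way from 12.3 to 6.10 CPM without reaching the mark.

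Red cell genes had the largest ratios of CPM + 0.5 in the table. Of 12 globin rows 10 were tested and all 10 rose (median 6.72), their summed level going from 25.4 to 5285 CPM, which counts a shared read at each copy. The rows are not independent, because Hba-a1 and Hba-a2, Hbb-b1 and Hbb-bs, and Hbb-b2 and Hbb-bt each share reads. GATA1, the factor that drives red cell maturation, binds short GATA sequences near these genes. The promoters of 3 globin genes and of Alas2, the first enzyme of haem synthesis in red cells, are shown because these globin genes had some of the largest ratios of CPM + 0.5 in the table and Alas2 the largest such ratio among haem and iron genes (250 bases upstream of the start, RefSeq, GRCm38.p6): Hba-x at chr11:32276350-32276599 and Hba-a1 at chr11:32283422-32283671 on the plus strand, Hbb-y at chr7:103853208-103853457 on the minus strand, and Alas2 at chrX:150547167-150547416 on the plus strand. Capitals mark matches on either strand to the motif AGATAA, its variant TGATAA with another first base, and the forms of both that end in G (AGATAG and, with the other first base, TGATAG).
Hba-x: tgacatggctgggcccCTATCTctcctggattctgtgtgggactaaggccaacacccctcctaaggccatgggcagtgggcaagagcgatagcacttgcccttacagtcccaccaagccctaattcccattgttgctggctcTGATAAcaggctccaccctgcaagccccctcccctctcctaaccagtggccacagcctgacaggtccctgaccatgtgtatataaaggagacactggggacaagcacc
Hba-a1: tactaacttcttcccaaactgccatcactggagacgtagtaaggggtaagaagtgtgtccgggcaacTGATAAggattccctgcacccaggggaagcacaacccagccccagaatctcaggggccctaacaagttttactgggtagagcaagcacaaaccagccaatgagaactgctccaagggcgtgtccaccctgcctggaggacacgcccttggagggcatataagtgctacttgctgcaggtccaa
Hbb-y: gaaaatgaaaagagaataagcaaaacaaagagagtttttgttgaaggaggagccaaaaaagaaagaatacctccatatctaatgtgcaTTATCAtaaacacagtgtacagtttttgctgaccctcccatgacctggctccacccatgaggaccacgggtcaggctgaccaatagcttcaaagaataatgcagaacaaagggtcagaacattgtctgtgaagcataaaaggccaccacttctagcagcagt
Alas2: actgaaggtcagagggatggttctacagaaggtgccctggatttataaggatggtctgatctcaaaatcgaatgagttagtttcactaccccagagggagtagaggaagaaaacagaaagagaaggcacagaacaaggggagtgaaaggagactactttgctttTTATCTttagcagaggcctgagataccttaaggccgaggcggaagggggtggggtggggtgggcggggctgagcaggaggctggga
The Hba-x window holds 2 matches, starting 234 and 108 bases upstream of the start site, and the others 1 each, at 183, 162 and 86 bases. At least 1 match was held by 6 of 9 globin promoters (66.7%), 8 of 14 red cell membrane promoters (57.1%), 7 of 14 red cell regulator promoters (50%) and 3 of 15 haem and iron promoters (20%), beside 27.1% of all promoters. Copies of 1 globin gene have similar windows and are not independent.

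The embryonic and adult globins were both present at 96 h. The embryonic alpha-type gene Hba-x rose from 1.80 to 308 CPM and the embryonic beta-type genes Hbb-y and Hbb-bh1 from 2.37 to 294 CPM and from 1.71 to 240.3 CPM. Per kb of exon, which lets genes be compared, the embryonic Hba-x stood at 384 CPM per kb, Hbb-y at 465 and Hbb-bh1 at 392.05 at 96 h. The adult alpha rows Hba-a1 and Hba-a2 stood at 3003 and 3789.5 CPM per kb, whereas the adult beta rows Hbb-bs and Hbb-bt stood at 38.9 and 30.1. Adult alpha-globin was thus the most abundant globin, while among beta-type genes both embryonic ones exceeded both adult ones. Hbq1b, a theta-like globin gene, rose from 0.624 to 152 CPM.

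Genes of the red cell membrane rose in 15 of 20 cases and fell in 0 (median 2.73). Slc4a1, the anion exchanger band 3, had 10 counts at 0 h and 20084 at 96 h, 0.0456 to 73.7 CPM (chromosome 11, 102348820 to 102365281, mm10). Rhag, of the Rh complex, went from 4 to 1494 counts. Kel, the Kell blood group protein, had 0 counts at 0 h and 2398 at 96 h (8.80 CPM). That is 644-fold above a floor of 3 counts at 0 h, and the lower bound of the counting interval was 523-fold. Epb4.2, band 4.2, had 2 and 2290 counts. Sptb and Ank1, a spectrin and an ankyrin gene of the membrane skeleton, rose from 1.81 to 30.2 CPM and from 0.738 to 19.7 CPM. Epb4.1 and Slc2a1, which many cell types express, were at 130.5 to 140.1 and 213 to 171 CPM.

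The regulators rose in 10 of 14 cases (median 2.46, or 1.36 with 2 CPM added in place of 0.5). Gata1 rose from 0.1003 to 5.84 CPM, Klf1, the activator of globin and membrane genes, from 0.173 to 5.62 CPM, Tal1 from 0.483 to 14.1 CPM, Nfe2 from 0.378 to 4.36 CPM and Epor, the erythropoietin receptor, from 0.784 to 5.995 CPM. Bcl11a, which silences embryonic globins, and Myb, a factor of definitive progenitors, were at 1.10 to 2.26 and 1.59 to 2.76 CPM and did not pass. Ldb1, a widely expressed partner of GATA1 and TAL1, was at 91.5 to 92.3 CPM.

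In haem and iron metabolism 8 of 20 genes rose and 0 fell (median 0.68). Alas2 rose from 2.30 to 40.7 CPM, the last enzyme Fech from 9.05 to 28.4 CPM, Cpox from 14.4 to 43.98 CPM and the mitochondrial iron importer Slc25a37 from 24.8 to 96.9 CPM. The intermediate enzymes Alad, Urod and Ppox were at 20.9 to 33.9, 24.7 to 31.6 and 12.1 to 16.3 CPM. The transferrin receptor Tfrc, expressed by all dividing cells, was at 123 to 129 CPM, while Tfr2, its red cell and liver relative, went from 4 to 328 counts.

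**Figure D4:**
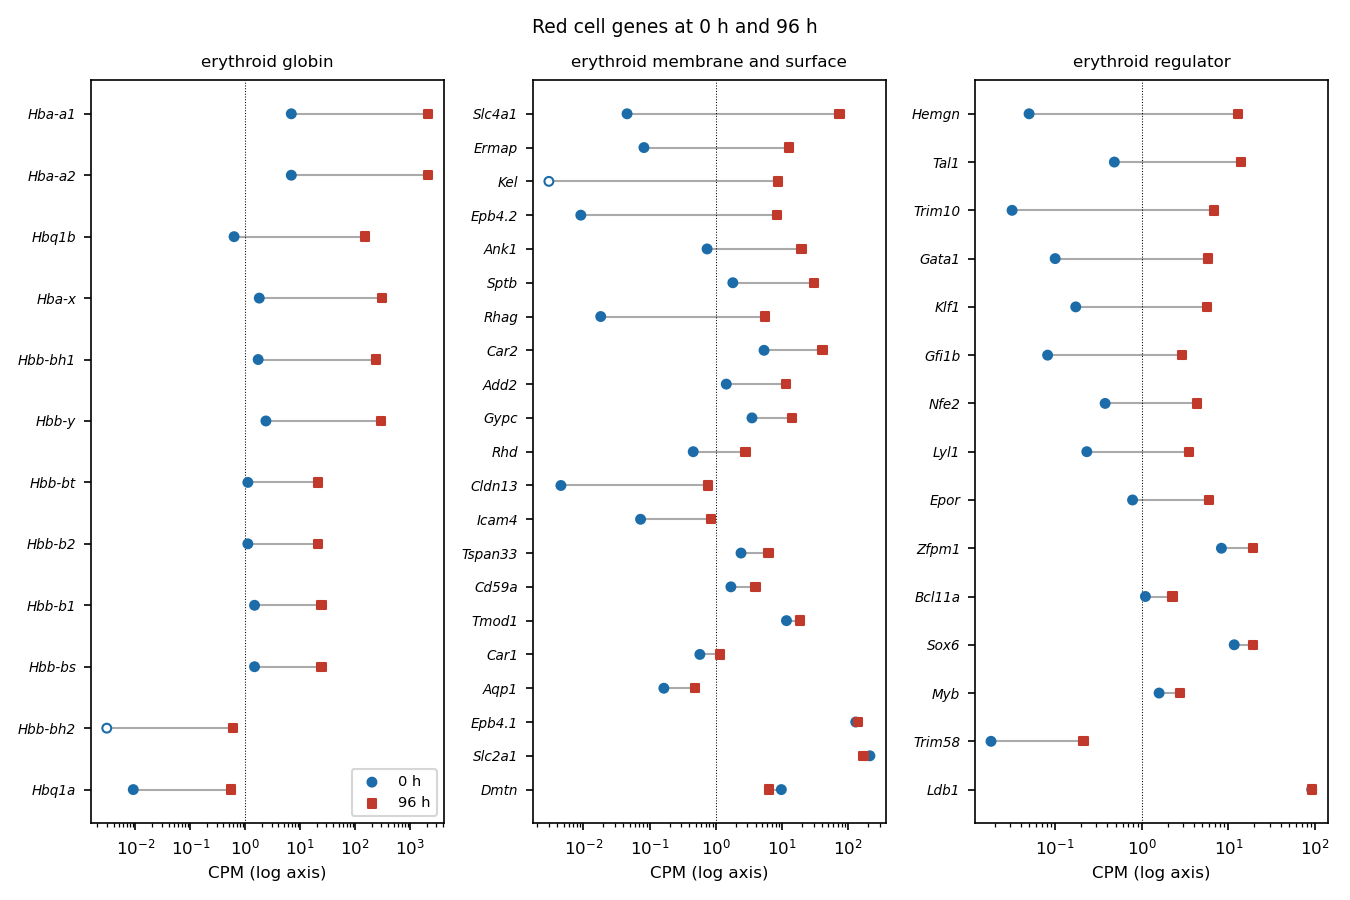
Levels of globin, red cell membrane and red cell regulator genes at 0 h (blue circles) and 96 h (red squares), in CPM on a log axis, 1 row per gene, ordered by log2 ratio. Open symbols stand for 0 counts and are drawn at the left edge, and the dotted line marks 1 CPM. Most genes lie farther right at 96 h and some cross that line, such as Slc4a1 from 0.0456 to 73.7 CPM, whereas Epb4.1 and Ldb1 lie far to the right at both times.

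Other blood lineages were weak. Of 25 macrophage and microglia genes matched, 6 passed the filter and 2 of them rose: Laptm5 from 0.310 to 2.15 CPM and Dab2, also expressed outside macrophages, from 14.9 to 30.6 CPM. The defining leukocyte genes were near 0: Ptprc (CD45) had 0 counts at 0 h and 0.125 CPM at 96 h, Csf1r 0.141 and 0.470 CPM, and C1qb 0 counts and 0.0844 CPM. Of 8 lymphoid and 8 mast cell and granulocyte genes in the table, 2 each passed the filter and 0 were called. Below the filter, the granulocyte gene Mpo went from 0 to 191 counts (0.701 CPM at 96 h). The mast cell gene Ms4a2 went the other way, from 71 to 22 counts. Spi1, of the macrophage and haematopoietic progenitor lists, went from 2 to 66 counts (0.242 CPM at 96 h). In the megakaryocyte list 5 of 9 tested genes rose, among them Itga2b from 0.647 to 3.48 CPM, Vwf from 0.447 to 4.26 CPM and Itgb3 from 0.930 to 5.44 CPM. The platelet-specific Gp1ba, Gp9 and Ppbp stayed below 1 CPM in both libraries. Among haematopoietic progenitor genes 5 of 11 rose, including Cd34 from 1.71 to 16.2 CPM and Ikzf1 from 0.829 to 5.93 CPM. Runx1, which blood stem cells need to form, was at 0.975 to 1.48 CPM.

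Endothelial genes rose in 23 of 31 cases and fell in 1 (median 1.76, or 1.09 with 2 CPM added). The receptor genes Kdr, Flt1 and Flt4 for vascular endothelial growth factors rose from 3.22 to 26.4 CPM, from 1.12 to 6.95 CPM and from 1.71 to 8.90 CPM. Junction genes rose too: Cdh5 from 1.25 to 21.01 CPM, Pecam1 from 0.702 to 8.70 CPM, Cldn5 from 0.902 to 5.78 CPM and Esam from 0.419 to 5.16 CPM. Gja5, an arterial connexin, rose from 0.1003 to 3.21 CPM, and Nos3, endothelial nitric oxide synthase, from 0.365 to 3.52 CPM. Etv2, the factor that starts the endothelial programme, went from 0.738 to 1.89 CPM, a log2 ratio of 0.95, and Prox1 and Nr2f2, of lymphatic and venous cells, were at 3.59 to 3.20 and 44.2 to 66.4 CPM. The gene that fell was Lmo2, a partner of Tal1 in blood and vessel precursors, from 34.04 to 6.86 CPM.

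Genes of connective tissue and matrix rose in part. In the embryonic fibroblast list 12 of 19 tested genes rose and 0 fell (median 1.35), out of 24 matched genes, and none of the 24 was at 0 counts in either library. Postn (periostin) rose from 2.59 to 101.2 CPM (chromosome 3, 54359267 to 54391041, mm10), the small proteoglycan genes Lum and Dcn from 0.246 to 30.1 CPM and from 0.155 to 6.65 CPM, and Fap, a surface protease of activated fibroblasts, from 0.406 to 6.83 CPM. Because the culture protocol names feeder fibroblasts, the 12 members that did not rise by the rule are given as well. Thy1 was at 0.656 to 0.418 CPM, S100a4 at 0.0137 to 0.117 CPM, S100a6 at 1.30 to 1.86 CPM, Dpt at 0.0365 to 0.382 CPM, Mfap5 at 0.109 to 0.0367 CPM, and Cdkn2a, which accumulates in cultured fibroblasts, at 0.0547 to 0.0367 CPM. These 6 genes stayed below 2 CPM in both libraries. The receptor genes Pdgfra and Pdgfrb were at 83.6 to 91.98 and 33.9 to 58.2 CPM, the fibulin genes Fbln1 and Fbln2 at 85.2 to 89.04 and 24.3 to 14.6 CPM, and Timp1, an inhibitor of matrix proteases, at 1.51 to 3.24 CPM. Fn1, abundant in fibroblasts and in early mesoderm, went from 521 to 302 CPM. With only genes of 5 CPM or more tested, the median of the list was 2.46. The part of feeder cells in the rise of the other members was not tested.

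**Figure D5:**
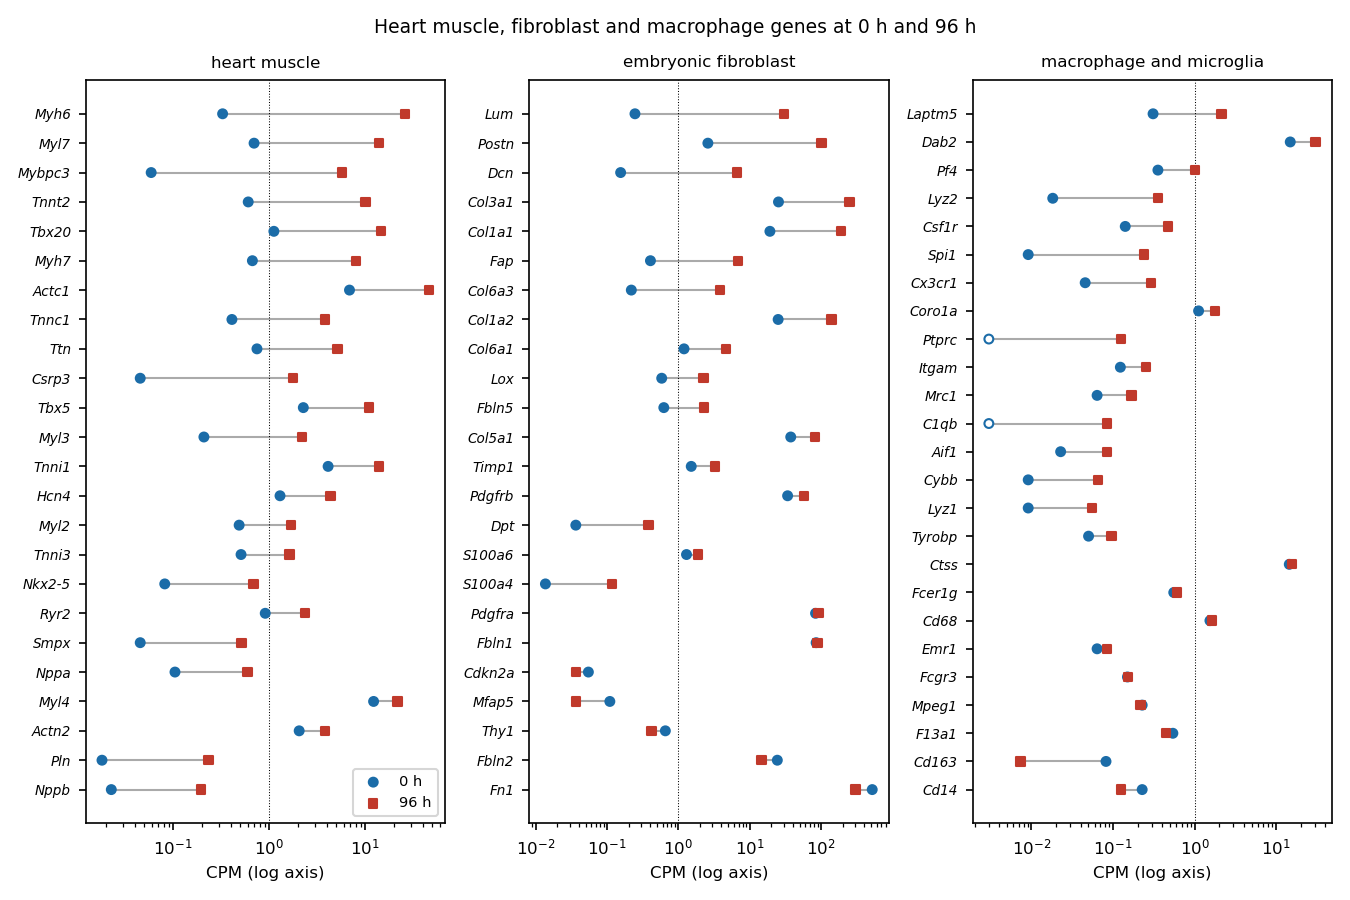
Levels of all matched heart muscle, embryonic fibroblast and macrophage genes at 0 h (blue circles) and 96 h (red squares), in CPM on a log axis, ordered by log2 ratio. Open symbols stand for 0 counts and are drawn at the left edge, and the dotted line marks 1 CPM. Heart genes and the upper fibroblast genes shift to the right, while Cdkn2a, Mfap5, Thy1 and Ptprc lie left of 1 CPM at both times.

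Collagen genes rose in 12 of 30 cases and fell in 0 (median 0.61), and their summed level went from 649 to 1451 CPM. The chains of collagen I rose, Col1a1 from 19.2 to 189 CPM and Col1a2 from 25.01 to 140.2 CPM, as did Col3a1 from 25.3 to 250.2 CPM and Col5a2 from 13.3 to 50.9 CPM. Col4a1, a basement membrane chain, was at 113 to 145 CPM and Col2a1, the main chain of cartilage, at 89.8 to 98.6 CPM, and neither passed, whereas the cartilage chain Col9a1 rose from 7.02 to 26.04 CPM. Of 35 matrix glycoprotein and proteoglycan genes 14 rose, including Tnc (tenascin C) from 1.49 to 18.4 CPM, Bgn from 2.93 to 10.1 CPM and Nid1 from 15.5 to 45.3 CPM, while the list's summed level went from 1983 to 1766 CPM. Vcan, Fbn2 and Lama1, matrix genes of early mesoderm and epithelium, were at 241 to 144, 218.6 to 172 and 82.4 to 41.6 CPM. The contractile genes Acta2 and Tagln rose from 12.2 to 62.3 CPM and from 7.49 to 25.9 CPM in a smooth muscle list with 4 of 14 higher. Myh11 and Actg2, which mark mature smooth muscle, were below 1 CPM in both libraries.

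In the cadherin and epithelial-mesenchymal list 7 of 24 fell and 4 rose (median -0.44). The mesenchymal factors Snai2 and Twist1 rose from 4.54 to 16.8 CPM and from 24.8 to 56.0 CPM, while Snai1, the presomitic relative of Snai2, went from 26.4 to 17.3 CPM. Twist2 rose from 4.19 to 8.98 CPM, and the fourth gene that rose was the endothelial cadherin Cdh5. The protocadherin genes Pcdh8 and Pcdh19 of presomitic mesoderm fell from 37.5 to 5.66 CPM and from 60.6 to 5.94 CPM, and the neural cell adhesion gene Ncam1 from 77.9 to 30.9 CPM. Cdh1 (E-cadherin) fell from 19.7 to 9.58 CPM, Epcam from 9.55 to 4.31 CPM and the epithelial splicing factor Esrp1 from 11.1 to 4.88 CPM. The claudin genes Cldn4, Cldn6 and Cldn7 of the gut endoderm and notochord list also fell, Cldn6 from 23.1 to 10.9 CPM. Krt8 and Krt18, keratins of simple epithelia and mesothelium, rose from 17.5 to 52.3 CPM and from 16.9 to 40.4 CPM. In the surface ectoderm list as a whole 2 of 14 rose and 2 fell, against 4.07% and 2.52% of all tested genes.

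In the neural tube list 3 of 17 (17.6%, against 4.07% of all tested genes) rose and 1 fell (median 0.24), and among 18 neuron genes 1 rose and 0 fell (median -0.02). Olig2, of motor neuron progenitors, rose from 3.10 to 12.9 CPM, and Neurod4 from 2.66 to 7.17 CPM, while the pan-neuronal Tubb3 was at 14.4 to 12.6 CPM. Of 13 neural crest genes Zic1, Sox10 and Tfap2b rose, Sox10 from 3.27 to 8.94 CPM, and Fabp7, shared with the neural list, fell from 10.4 to 2.71 CPM.

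Genes of growth and housekeeping hardly differed. None of 28 S phase genes (log2 ratios -0.15 to 0.31) and none of 26 G2 and M phase genes (-0.35 to 0.20) was called, with Mki67 at 196 to 216 CPM and Pcna at 155 to 161 CPM. The same held for 79 cytosolic ribosomal protein genes (median -0.06), 71 nuclear genes of the respiratory chain (median -0.06) and 23 lysosomal genes (median 0.11). Of 22 genes typical of early embryonic cells, Sall1, Sall4 and Arid3b fell, Sall4 from 122 to 47.5 CPM, while Lin28a was at 239 to 144 CPM and Ezh2 at 129 to 122 CPM.

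Glycolysis and hypoxia genes had a median of -0.22 over 25 genes with 1 lower and 1 higher by the rule. Of all tested genes 2.52% were lower and 4.07% higher. Slc2a3, a glucose transporter, fell from 279.9 to 92.6 CPM and Ndrg1 rose from 2.37 to 6.60 CPM, while Ldha was at 544 to 435 CPM. In cholesterol synthesis all 23 genes had a log2 ratio below 0 (median -0.31). Hmgcs1 and Sqle, enzymes of the pathway, were at 161 to 131 and 66.0 to 57.6 CPM.

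Stress programmes showed single genes rather than whole lists. The shares over all tested genes were 4.07% higher and 2.52% lower. Among 24 immediate early genes Atf3 and Klf2 rose from 1.07 to 4.997 CPM and from 0.428 to 1.501 CPM and Btg2 fell from 36.4 to 11.3 CPM, while Fos, Jun and Egr1 were at 11.3 to 16.5, 20.2 to 31.96 and 15.7 to 17.9 CPM. Of 20 heat shock genes Hspa1a (1.60 to 6.89 CPM), its near-identical copy Hspa1b (2.19 to 7.54 CPM) and Cryab (0.574 to 3.98 CPM) rose. Hspa8 and Hsp90ab1 were at 1048 to 1072 and 1064 to 978 CPM. The metallothionein genes Mt1 and Mt2 rose from 0.738 to 5.91 CPM and from 0.615 to 6.96 CPM in a list where 0 of the 13 other genes was called. Of 22 p53 targets the pro-apoptotic Pmaip1 fell from 29.1 to 1.69 CPM with Btg2, the death receptor Fas rose from 0.164 to 1.60 CPM, and Cdkn1a, the best-known target, was at 6.79 to 4.72 CPM. In the unfolded protein and amino acid response Trib3 rose from 0.283 to 2.55 CPM and Ddit4 fell from 25.4 to 9.34 CPM, with Hspa5 at 365 to 335 CPM. Interferon, cytokine and complement genes were mostly below the filter, and 1 of 7, 1 of 8 and 1 of 6 tested genes were called. The called gene of the cytokine list was Cxcr4, which fell from 22.4 to 10.4 CPM.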

How the data were processed

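The authors deposited unnormalized counts of reads per gene. Per the submitters' processing notes, mm10, STAR 2.4.0e, cutadapt, HTSeq and DESeq were used, in roles the notes do not give. How reads were counted is not given in the sources. Rows of near-identical genes hold nearly equal counts. Between 65.4% and 68.5% of values from 1 to 20 are even, and if pairs were counted as 2 reads the intervals are too narrow. The 4 columns of treated cells do not line up with the gene names and were not used. In all, 4 rows whose names occur more than once were not named.

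Counts were scaled with TMM (edgeR 4.0.16, R 4.3.3) to CPM. Genes reaching 1 CPM in either library were tested (13824, leaving out 5518). A call required a 2-fold ratio of CPM + 0.5, which understates changes of weak genes, and an exact Clopper-Pearson 95% counting interval excluding 1. The interval removed 0 genes, so the fold set the calls. Fold ranges in the text are these intervals. With 1 library per time, no test across replicates exists.

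The members and gene lists were chosen with earlier results of these data known. Named genes were up to 15 per direction whose interval lay farthest from 1, with 5 CPM or more on average, genes near the counting floor, and, from long lists, up to 8 called and the 4 most abundant members. Genes named beyond that were chosen after their values were seen. Exon lengths came from GENCODE M21 and coordinates and promoters from RefSeq GRCm38.p6, matched by symbol for 19215 names. Scaling, added CPM, filter and fold were varied. Some items are not reported here.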

Additional observations from a re-analysis of the deposited data

How the results depend on the processing

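The 562 higher and 348 lower genes depended on the threshold and hardly on the scaling. Total-count scaling gave 560 and 348, and DESeq2 size factors, or leaving globin and ribosomal RNA rows out of the scaling (no mitochondrially encoded row matched), gave 562 and 348. Adding 0.1 CPM gave 671 and 435, and no filter 612 and 372. Adding 2 CPM gave 312 and 195, a filter of at least 5 CPM gave 322 and 214, and a 4-fold mark gave 169 and 94. In the alternatives chosen after seeing the data, leaving out small RNA and shared-count rows gave 698 and 431, where CPM levels rise and more genes pass, and halving all counts gave 561 and 348. Without the blood, vessel, heart and fibroblast lists 456 genes rose, and without the tailbud, presomitic and Hox lists 299 fell. Of 312 called genes among the 1420 named or listed, 82 lost the call with 2 CPM added and 71 with the filter of at least 5 CPM, and 0 reversed direction under the other scalings, added CPM and filters or without the small RNA and shared-count rows. List medians moved more: over those 8 alternatives and the reported fit that of presomitic genes lay between -2.71 and -1.70, of globin genes between 5.21 and 6.97, of red cell membrane genes between 1.85 and 3.53, of red cell regulators between 1.36 and 3.33, of heart genes between 1.38 and 2.86, of endothelial genes between 1.09 and 2.31 and of fibroblast genes between 1.00 and 2.46. No list median was computed at the 4-fold mark, with halved counts or without the lists. No paired analysis was possible because each time point had 1 library. Depth was not the limit: genes of 1 CPM had over 200 counts, so the missing replicates and unknown cell mixture limit the reading.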

Other observations

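Imprinted genes, expressed from 1 parental allele, rose in 3 of 27 tested cases with none lower by the rule. Of all tested genes 4.07% rose and 2.52% fell. The list median was 0.44, beside -0.0042 for all tested genes. The genes that rose were Zim1 from 9.14 to 20.2 CPM, Dlk1, a secreted regulator of growth and differentiation, from 64.4 to 149.6 CPM, and Phlda2 from 2.42 to 6.86 CPM. Peg10, Slc38a4 and Rian, each below the 2-fold mark, were at 293 to 576, 49.9 to 91.7 and 132 to 218.9 CPM. The growth factor gene Igf2 was at 499.9 to 677 CPM and H19 at 688 to 765 CPM. The Y-linked genes Ddx3y and Kdm5d were at 19.4 to 23.4 and 15.3 to 17.1 CPM. Eif2s3y and Uty, also Y-linked, were at 15.7 to 15.5 and 14.2 to 13.1 CPM. Xist, transcribed from the inactive X of female cells, was at 124 to 79.4 CPM, its counts not told apart from those of antisense Tsix. No sex-linked gene passed.

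Some of the largest ratios belonged to genes outside the lists. Gad1, which makes the transmitter GABA, fell from 13.7 to 0.268 CPM, the potassium channel subunit gene Kcnab3 from 11.8 to 0.521 CPM and the matrix gene Adamtsl2 from 19.4 to 0.925 CPM. Acp5, an acid phosphatase of osteoclasts and macrophages, rose from 0.283 to 12.2 CPM while the macrophage genes Ptprc and Csf1r were near 0. Near the counting floor Hspb7, a small heat shock gene of heart muscle, went from 2 to 436 counts, Gzmk from 377 to 2 and Hamp from 365 to 2. Genes picked after their values were seen include Pklr, the pyruvate kinase of red cells and liver, from 0.428 to 14.1 CPM, the transglutaminase gene Tgm2 from 1.21 to 14.5 CPM, Gbx2, a posterior neural and streak gene, from 20.9 to 5.08 CPM, and Asb4, of heart and vessel precursors, from 12.1 to 62.8 CPM.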
